A study of Mus musculus with 2 samples.

Results

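The imprinted Dlk1-Dio3 domain of mouse chromosome 12 holds a dense cluster of miRNA hairpins, and their small RNAs in fetal mouse testis are described here one by one. Its members were all miRNA genes of the GENCODE M21 annotation that lie between 109.5 and 109.8 Mb of chromosome 12 on GRCm38, which gave 66 of the 2202 annotated miRNA hairpin genes of the mouse. The choice rested on position alone and used no read count. Of the members, 59 lie on the plus strand and 7 on the minus strand, and the first hairpin starts 203420 nt before the last one ends. The study sequenced small RNAs from fetal testes of mice lacking the chaperone Hsp90α and of wild-type mice. Both libraries came from whole testes of the C57BL/6 strain at embryonic day 16.5, each pooled from 20 testes, so that germ cells and all somatic cells of the gonad are mixed. The KO library came from Hsp90α knock-out fetuses and the WT library from Hsp90α wild-type fetuses. The tables hold small RNAs, so the knock-out of Hsp90aa1, the gene of Hsp90α, was not checked on its mRNA. There was 1 library per genotype, so a difference between KO and WT has no replicate check, and no p-value is given. Intervals are exact 95% Clopper-Pearson intervals that cover counting error only, and since reads without molecular identifiers are not independent molecules they compare the libraries and not the genotypes.

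A miRNA is cut from a hairpin in its transcript, and a duplex of a 5p and a 3p arm is loaded into an Argonaute protein, which as a rule keeps 1 arm. Target mRNAs are recognised mainly by the seed, bases 2 to 8 of the mature miRNA, so a shift of the 5′ end changes the seed while a change at the 3′ end does not. In the Dlk1-Dio3 domain the protein-coding genes Dlk1, Rtl1 and Dio3 are expressed from the paternal chromosome, while the long non-coding RNAs Meg3, Rian and Mirg, the miRNA hairpins and a row of C/D box snoRNAs are expressed from the maternal one. The miRNAs opposite Rtl1 are fully complementary to the Rtl1 mRNA and can cut it. The cluster is known for high expression in embryo, placenta and brain, and some of its miRNAs, such as those of the miR-376 and miR-379/miR-411 groups, are known substrates of A-to-I editing in brain.

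The arms on which the results turn are printed 5′ to 3′ with the seed in capitals, as RefSeq gives the mature miRNA on GRCm38; RefSeq held 60 of the 66 members by symbol. The first 7 sequences come from abundant hairpins, among them Mir410, which had the lowest KO/WT of the hairpins with 1000 reads of their own, and Mir409, whose 5′ ends vary. The next 3 come from the group opposite Rtl1. The pair miR-300-3p and miR-381-3p differs by A4G in the seed, counted from 1 at the 5′ end of miR-381-3p, and by G21T and T22C at the end (T stands for U). The pair miR-379-3p and miR-411-3p shares a seed, and the last 2 arms belong to the hairpins furthest below 1 in KO/WT among those with 100 reads.
miR-127-3p: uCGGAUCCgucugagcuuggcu
miR-411-5p: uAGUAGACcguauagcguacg
miR-541-5p: aAGGGAUUcugauguuggucacacu
miR-410-3p: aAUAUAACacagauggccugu
miR-434-5p: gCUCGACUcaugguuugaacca
miR-434-3p: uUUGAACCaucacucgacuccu
miR-409-3p: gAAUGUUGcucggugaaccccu
miR-136-3p: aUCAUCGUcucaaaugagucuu
miR-431-5p: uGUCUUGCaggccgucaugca
miR-433-3p: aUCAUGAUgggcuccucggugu
miR-381-3p: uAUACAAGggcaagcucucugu
miR-300-3p: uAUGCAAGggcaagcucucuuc
miR-379-3p: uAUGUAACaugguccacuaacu
miR-411-3p: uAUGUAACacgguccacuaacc
miR-495-3p: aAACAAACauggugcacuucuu
miR-668-3p: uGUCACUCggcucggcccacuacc

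The deposited tables held 6409305 reads for WT and 5589326 for KO. Reads of at least 16 nt that lay exactly, in sense, inside an annotated miRNA hairpin numbered 2523084 in WT and 2561491 in KO, and levels are given as RPM, reads per 1000000 of these hairpin reads. A count of 0 in a library allows up to 3 reads, or 1.19 RPM in WT and 1.17 in KO. Markers of the expected cells were present: Mir202, a miRNA of Sertoli cells, had 5037 reads in WT and 5466 in KO, and Mir295 of the germ cell miR-290 cluster had 1045 and 1428. Of the neuronal markers, the Mir124a hairpins had 1 read in WT and 2 in KO, and the Mir9 hairpins, which share their reads, had 41 and 35.

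Cluster hairpins accounted for 199122 reads in WT and 198930 in KO, or 7.89% and 7.77% of all hairpin reads. Without Mir10b, the most abundant hairpin of both libraries, the shares were 17.9% and 17.4%. KO/WT of the whole cluster was 0.984, with an interval of 0.978 to 0.990, a difference far smaller than the range over single members. In a bulk sample fewer cells of a type and less RNA per cell cannot be told apart, so the figure describes the tissue and not any cell. The quotient of the cluster's KO/WT to that of all other hairpins was 0.983 (0.976 to 0.989). Against the miR-290 cluster, which marks germ cells and had 2024 reads in WT and 2661 in KO, the quotient was 0.760 (0.717 to 0.805). The marker list of germ cells had a KO/WT of 1.34 (1.26 to 1.43), that of supporting cells 1.06 (1.03 to 1.10), of mesenchyme 1.02 (1.01 to 1.03), of endothelium 1.0 (0.979 to 1.03), of blood 0.812 (0.759 to 0.869) and of neurons 0.868 (0.542 to 1.38). The mesenchyme value pooled members on both sides of 1, such as Mir143 at 0.811 (0.803 to 0.819) and Mir199a-1 at 1.32 (1.31 to 1.34). Of the 13 annotated germ cell markers, 9 had reads, and Mir302c, Mir367, Mir290b and Mir292b were at 0 in both libraries. The list named Mir292a, which the annotation lacks, so Mir292 (394 and 443 reads, KO/WT 1.11, 0.965 to 1.27) was left out. The miR-290 cluster, which includes Mir292 and otherwise overlaps the list, had a KO/WT of 1.30 (1.22 to 1.37). The part of these cell types in the cluster's values was not tested.

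The cluster was dominated by few hairpins. Mir127 (chr12:109592846-109592915), which lies opposite Rtl1, gave 56.5% of the cluster's reads in WT and 59.6% in KO, and ranked 2 among all hairpin genes. Mir411 (chr12:109710175-109710256) and Mir541 (chr12:109742409-109742498) ranked 17 and 20. With Mir410 (chr12:109743715-109743795) these hairpins made up 84.9% of the cluster in WT and 85.7% in KO, and the top 10 made up 95.9% and 96.1%. Mir127 lay above the next member by several-fold, at a mean of 45424 RPM against 9790 for Mir411, and 8 members exceeded 1000 RPM and 19 exceeded 100 RPM on average. Reads were found for 53 members, of which 40 had at least 100 in both libraries together and 13 had fewer. The order of levels was nearly the same in both libraries, with a Spearman rho of 0.994 over the 49 members seen in both, where all points share the 2 libraries.

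**Figure D1:**
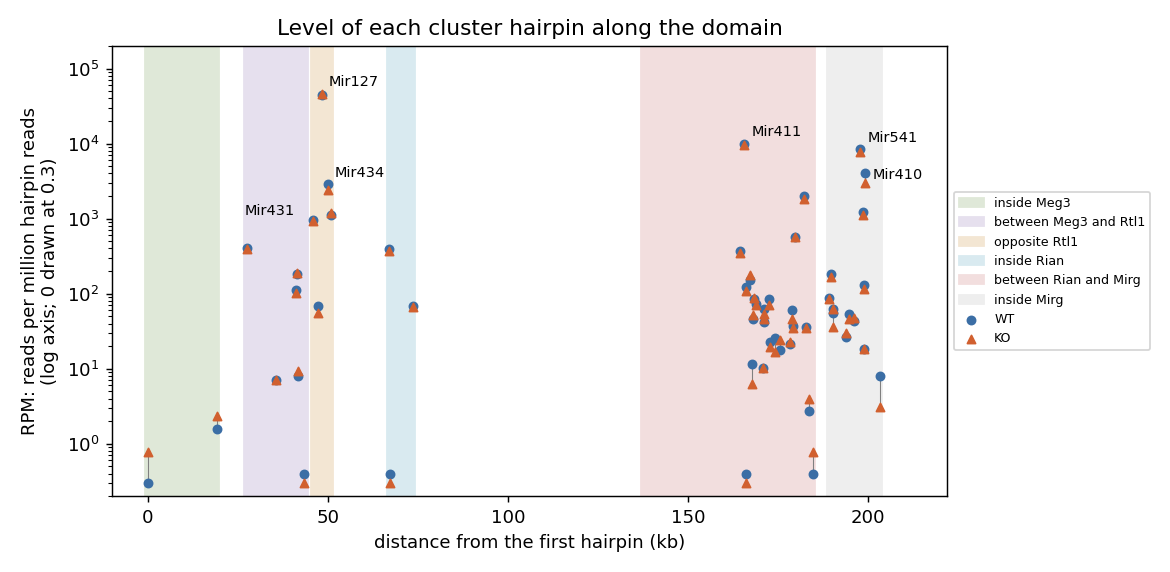
Level of each cluster hairpin in WT (circles) and KO (triangles), in RPM on a log axis, against the distance from the first hairpin in kb; shading marks the segment of the domain. Mir127 stands far above all others at a mean of 45424 RPM, and the WT and KO points of the abundant hairpins nearly coincide.

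The 13 members without a read were Mir3544, Mir3070b, Mir432, Mir3071, Gm23912, Mir882, Gm25750, Mir654, Gm25252, Gm44322, Gm27379, Mir453 and Gm24321. All 7 minus-strand members together had 1 read, a Mir299b read that the plus-strand Mir299a hairpin also holds. The minus-strand annotations opposite Mir337, Mir136, Mir380, Mir376a, Mir539 and Mir409 were at 0 in both libraries. Reads that could not be assigned to 1 member were 3 in WT and 3 in KO.

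The hairpins opposite Rtl1 carried most of the cluster. This segment of 7 hairpins held 62.8% of cluster reads in WT and 65.5% in KO, and its KO/WT was 1.03 (1.02 to 1.03). Without Mir127 it was 0.912 (0.889 to 0.935), so the direction of the segment rested on that hairpin. Mir127, whose 3p arm is the major miRNA of the domain, had 112455 reads in WT and 118542 in KO, or 44570 and 46279 RPM, and a KO/WT of 1.04 (1.03 to 1.05). Mir434 had 7205 reads in WT and 6114 in KO, so that KO/WT was 0.836 (0.808 to 0.865). Mir136 had 2829 and 3054 reads and a KO/WT of 1.06 (1.01 to 1.12), while Mir431 had 2410 and 2370 reads and a KO/WT of 0.969 (0.915 to 1.03). Mir433 had 173 reads in WT and 141 in KO, with an interval that includes 1, 0.638 to 1.01. Neighbours in this segment thus lay on both sides of 1. No read matched the Rtl1 transcript in sense in either library.

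The hairpins at the Meg3 end were scarce. The pair inside Meg3, Mir1906-1 and Mir770, had 4 reads in WT and 8 in KO together. Between Meg3 and Rtl1, Mir673 had 1038 reads in WT and 1004 in KO, Mir540 had 465 and 483 and Mir337 had 282 and 264, and KO/WT of the segment was 0.968 (0.907 to 1.03). Mir493 had 18 reads in each library, Mir665 had 20 and 24, and Mir3070a had 1 read in WT. Inside Rian, Mir341 had 984 reads in WT and 949 in KO and Mir370 had 171 and 168, while Mir1188 had 1 read in WT. KO/WT of the Rian segment was 0.952 (0.876 to 1.03). The intervals of these segments included 1.

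The 30 hairpins between Rian and Mirg form the core of the miR-379/miR-410 group and include the miR-376 family. Together they had 34875 reads in WT and 33901 in KO, a KO/WT of 0.957 (0.943 to 0.972), and without Mir411 the value was 0.958 (0.931 to 0.985). Mir411 had 25237 reads in WT and 24531 in KO, so that KO/WT was 0.957 (0.941 to 0.974). Its neighbour Mir379, 1 kb upstream and with a related sequence, had 928 and 898 reads, less by more than an order of magnitude. Mir381 had 4989 reads in WT and 4746 in KO, so that KO/WT was 0.937 (0.900 to 0.975). Mir300, which is almost identical to Mir381 in its 3p arm, had 1415 and 1461 reads and a KO/WT of 1.02 (0.945 to 1.09). Mir380 was the only member of this segment with an interval above 1, at 383 and 461 reads and a KO/WT of 1.19 (1.03 to 1.36). Within the miR-376 family, Mir376b had 155 reads in WT and 117 in KO and a KO/WT of 0.744 (0.580 to 0.951), Mir376a had 94 and 88 reads and Mir376c 54 and 59, so only Mir376b had an interval apart from 1. Mir667, with 45 and 62 reads, had the highest KO/WT of the members with 100 reads, 1.36, with an interval of 0.910 to 2.04. Mir323 had 116 and 135 reads, and its KO/WT of 1.15 had an interval of 0.888 to 1.48. Mir495, with 65 and 43 reads, had a KO/WT of 0.652 (0.433 to 0.973). The intervals of the members with 100 reads that follow all included 1. Mir299a had 307 reads in WT and 275 in KO, Mir758 had 217 and 221, Mir666 had 217 and 180, Mir329 had 182 and 180, Mir679 had 156 and 136, Mir1193 had 107 and 117, Mir487b had 90 and 88, and Mir543 had 57 and 50. Of the scarce members, Mir1197 had 29 and 16 reads, Mir494 had 26 in each library, Mir539 had 7 and 10 and Mir544 had 1 and 2.

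Inside Mirg the 15 hairpins had 36191 reads in WT and 31890 in KO, a KO/WT of 0.868 (0.855 to 0.881). Mir410 set much of this value. It had 10093 reads in WT and 7685 in KO, or 4000 and 3000 RPM, and a KO/WT of 0.750 (0.728 to 0.773). Among the 89 hairpin genes with at least 1000 reads of their own, Mir410 had the lowest KO/WT, followed by Mir378a at 0.781 and Mir143 at 0.811. Mir434 ranked 6 from the lowest in the same list. Without Mir410, an alternative chosen after its value was seen, KO/WT inside Mirg was 0.914 (0.898 to 0.930), and that of the whole cluster was 0.997 (0.990 to 1.0). Mir541 had 21362 reads in WT and 19798 in KO, so that KO/WT was 0.913 (0.895 to 0.931), and Mir409 had 3057 and 2836, with 0.914 (0.868 to 0.962). Mir369, which lies between Mir409 and Mir410, had 329 and 298 reads and a KO/WT of 0.892 (0.760 to 1.05). Mir668 had 138 reads in WT and 93 in KO, a KO/WT of 0.664 (0.505 to 0.870). Mir134, known for a role in dendritic spines, had 459 and 428 reads, and Mir382 had 218 and 220. Of the other members with 100 reads, all with intervals that included 1, Mir485 had 159 and 162 reads, Mir496a had 134 and 119, Mir377 had 108 and 120 and Mir154 had 67 and 76. Mir412 had 47 reads in each library. Mir3072, the last hairpin of the interval, had 20 and 8 reads and was below the read minimum.

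Along the domain, KO/WT of the members in genome order, cut into 4 blocks of 16 or 17, was 1.02, 0.960, 0.948 and 0.868. The first block holds Mir127 and the last holds Mir541 and Mir410. Over the 40 members with 100 reads the Spearman rho between position and log2 KO/WT was -0.15, each member counting once. Of these members 27 lay below 1 and 13 above, with a median log2 KO/WT of -0.070 and 35 of them between 0.8 and its inverse. The 165 other hairpins with 100 reads of their own had a median of -0.017.

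**Figure D2:**
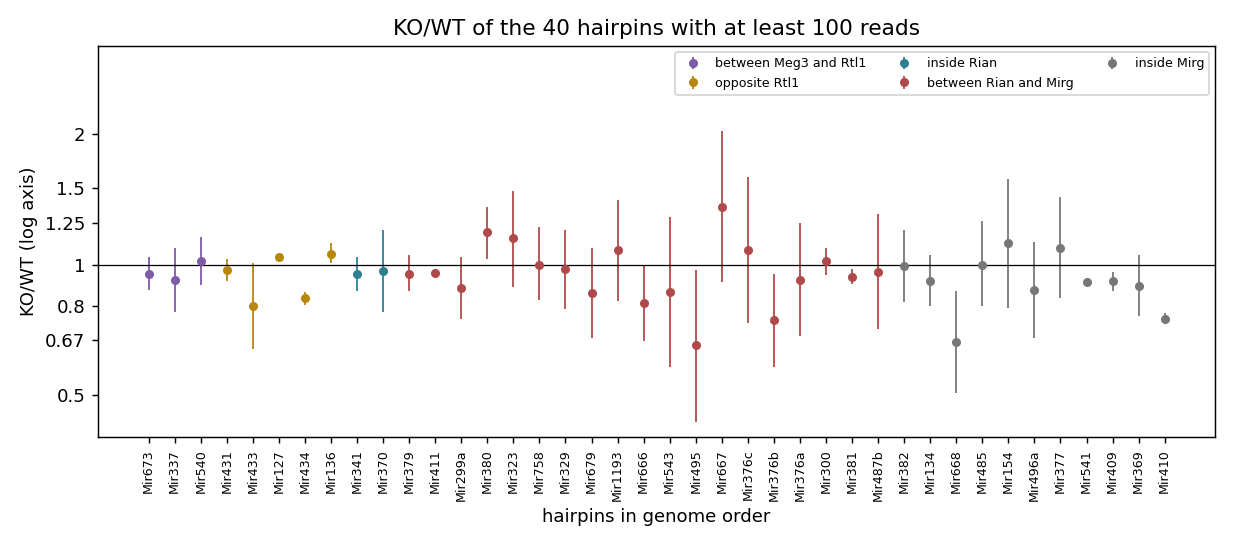
KO/WT on a log axis for the 40 hairpins with at least 100 reads, in genome order, with 95% counting intervals; colours mark the segments. Mir495 and Mir668 lie below 0.67 with wide intervals, and Mir410 is at 0.750 with a narrow one.

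Few members passed a fold of 1.5 between the libraries. Mir495 and Mir668 were at least 1.5-fold lower, 2 of 40 members. Over all hairpin genes with 100 reads the share was 40.0%, but of those 183 lower genes 179 shared over 50% of their reads with other hairpins and 176 are unnamed Gm copies. Counting reads of a single hairpin gene only, which left all 40 members in place, the share was 1.95% (4 of 205 genes, which were Gm26318, Mir144, Mir495 and Mir668). No member was 1.5-fold higher, against 0% of hairpin genes on all reads and 0% on reads of their own. At a minimum of 500 reads no member passed the fold in either direction, against 38.4% lower and 0% higher of all hairpin genes on all reads. On own reads the log2 KO/WT of the 104 other hairpins with 500 reads ran from -0.53 to 0.49, so none of them passed the fold either. The interval lay wholly below 1 for 9 members, Mir127's neighbour Mir434, Mir411, Mir495, Mir376b, Mir381, Mir668, Mir541, Mir409 and Mir410, or 22.5%, against 52.4% of all hairpin genes and 20.0% on own reads. It lay wholly above 1 for 3 members, Mir127, Mir136 and Mir380, or 7.50%, against 9.39% and 17.6%. On own reads the members' share below 1 was thus close to the background. Scaled to all reads of at least 16 nt, Mir410 alone of the 9 kept an interval below 1, at 0.888 (0.862 to 0.915).

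KO/WT varied somewhat less among the members than among other hairpins, and in both sets more than counting error alone would give. At 1000 reads of their own or more, the SD of log2 KO/WT was 0.131 over 13 members and 0.174 over 76 other hairpins, where counting error alone would give 0.042 and 0.053. The medians were -0.070 and 0.019. At 100 reads the SD was 0.210 over 40 members and 0.275 over 165 others, and 87.5% of members against 82.4% of all 205 hairpins lay between 0.8 and its inverse. The spread of abundant members was thus wider than counting error, and how far libraries of 1 genotype differ from each other was not measured.

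**Figure D3:**
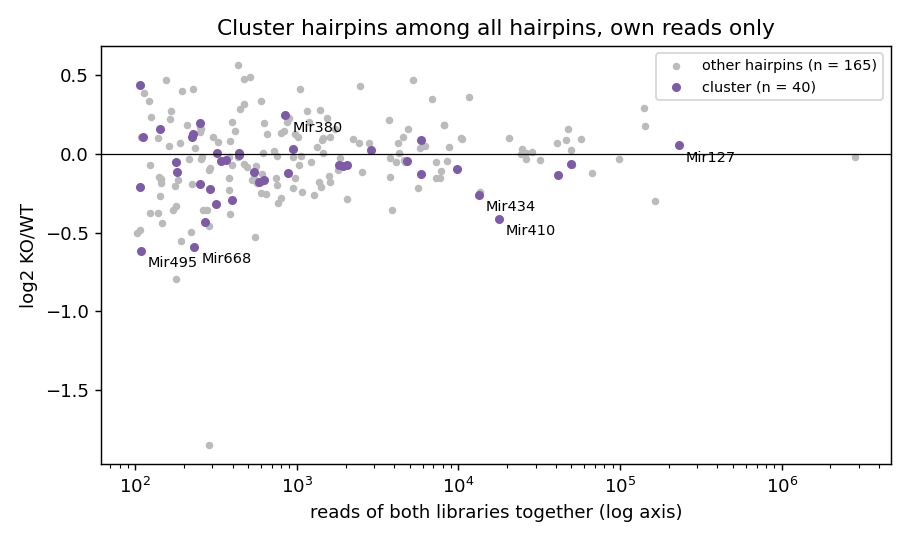
Log2 KO/WT against the reads of both libraries together (log axis) for hairpin genes with at least 100 reads of their own, with the 40 cluster members coloured and the 165 others in grey. Mir410 is the lowest point above 1000 reads, and Mir127 lies near 0.

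Nearly all hairpins kept their preferred arm in both libraries, Mir329 being the exception. Of the 40 members, 13 had more reads on the 5p arm and 27 on the 3p arm, 39 had the same dominant arm in WT and KO, and 21 had over 90% of reads on that arm in both. Mir541 and Mir411 were read almost wholly from 5p, with 21357 of 21362 reads and 98.2% of reads in WT. Mir127, Mir410, Mir381 and Mir300 were read from 3p, with 5p shares of 0.327%, 0.0297%, 0% and 0.141% in WT. Mir434 used both arms, with 45.2% on 5p in WT and 47.5% in KO, and both its arms were lower in KO, at 0.879 (0.836 to 0.924) for 5p and 0.80 (0.764 to 0.839) for 3p. Mir329 was split, with 49.5% (42.0 to 56.9) and 50.6% on 5p, but on reads of 20 to 24 nt the 5p share was 37.8% in both libraries, as its commonest 5p read was 25 nt long. The arm shares had intervals apart for 1 member, Mir127, whose minor 5p arm had 368 reads in WT and 277 in KO, 0.327% (0.295 to 0.362) against 0.234% (0.207 to 0.263). The largest change was 9.30 percentage points at Mir370, and the median over members was 1.30.

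The 5′ ends, which set the seed, were precise for most arms. For the dominant arms the main 5′ end held a median of 96.3% of reads in WT and 96.2% in KO, and it was the annotated one for 33 of the 38 arms that RefSeq lists. Mir411-5p was the most abundant exception. In WT 70.1% (69.6 to 70.7) of its reads began at the annotated base, and 29.4% (28.8 to 29.9) began 1 base upstream, 7277 reads, against 28.7% (28.2 to 29.3) or 6935 reads in KO. The longer form has another seed, printed in capitals.
miR-411-5p, 1 base upstream: aUAGUAGAccguauagcguacg
Mir434-5p had 18.7% of reads in WT and 19.4% in KO 1 base upstream of its main end. Mir409-3p had 3 ends, with 60.1% of WT reads at the annotated base, 18.7% before it and 20.8% after it, and 60.5%, 17.8% and 21.5% in KO. Mir136-3p began 1 base upstream of the annotated mature miRNA in 93.9% of WT and 91.9% of KO reads, so that the annotated start held 4.87% (4.05 to 5.80) and 6.53% (5.61 to 7.54). Its main form is shown for comparison with the annotated one.
miR-136-3p, main 5′ end: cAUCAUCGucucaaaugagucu
Mir341-3p, whose sequence is a repeat of a 4-base unit, had a further end 4 bases downstream in 30.5% (27.6 to 33.5) of WT and 25.6% (22.8 to 28.5) of KO reads. KO/WT of the annotated Mir136-3p start was 1.42 (1.11 to 1.80), against 1.03 (0.975 to 1.09) for its main end, and KO/WT of the downstream Mir341-3p end was 0.804 (0.675 to 0.957), against 0.998 (0.892 to 1.12) for its main end.

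Seeds were seldom shared in the cluster. The 61 arms with at least 50 reads had 59 distinct seeds, and 2 seeds occurred on 2 arms each. The seed AUGUAAC of Mir379-3p and Mir411-3p had 719 reads in WT and 603 in KO, a KO/WT of 0.826 (0.740 to 0.922). Both are minor arms of their hairpins. The seed AGGUCAC of Mir370-5p and Mir1193-3p had 133 and 156 reads, 1.16 (0.911 to 1.47).

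Most cluster reads had the length of a miRNA. Reads of 20 to 23 nt made up 91.2% in WT and 91.7% in KO, with 22 nt the commonest length. Without Mir127 they made up 81.6% in both libraries, and the commonest length was 21 nt. For the other hairpins without Mir10b the share was 86.2% in WT and 87.1% in KO. Mir541 differed from the other abundant members, since 25 nt was its commonest length, with 42.5% of its reads in WT and 44.3% in KO, and 25 nt is also the length of the mature miRNA in RefSeq. Reads of 24 to 33 nt were 66.2% of Mir541 in WT and 66.3% in KO, and Mir541 gave 95.6% and 95.8% of the cluster's reads of that length. This is the size range of piRNAs, the small RNAs of germ cells that bind Piwi proteins. Outside hairpins, reads of 24 to 33 nt had a KO/WT of 0.638 (0.637 to 0.640) on the same scale, while those of Mir541 had 0.915 (0.894 to 0.937), near the 0.913 of the whole hairpin. Cluster reads of 20 to 23 nt had a KO/WT of 0.990 (0.984 to 0.996). Scaled to all reads of at least 16 nt, which include that class, KO/WT of the whole cluster was 1.16 (1.16 to 1.17), on the other side of 1.

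**Figure D4:**
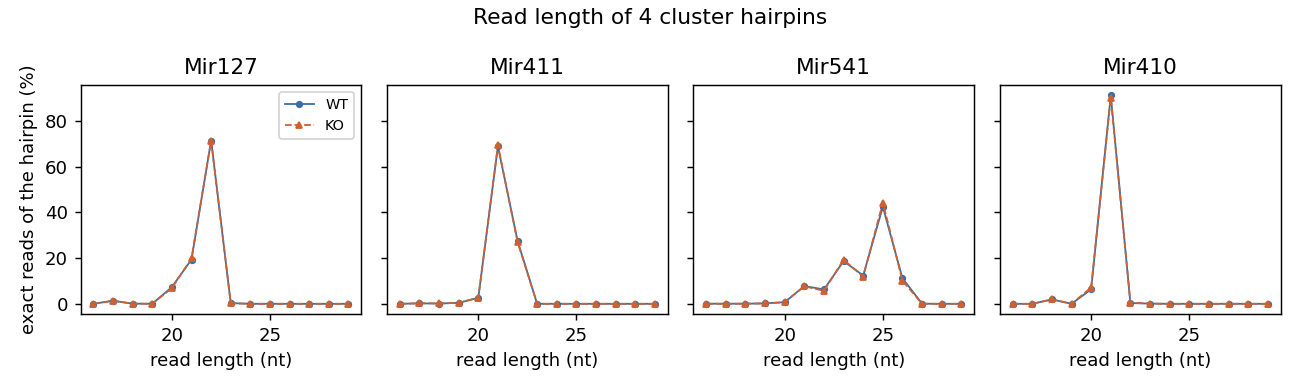
Share of exact reads by read length in nt for Mir127, Mir411, Mir541 and Mir410, in WT (circles, solid line) and KO (triangles, dashed line). Mir541 peaks at 25 nt with 42.5% of WT reads, and the lines of both libraries nearly coincide for each hairpin.

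Many cluster miRNAs carried bases at the 3′ end that the hairpin does not encode. This was measured on all reads that open with the first 18 bases of an arm. It covered 73 arms with at least 500 reads from their main 5′ end in each library, 13 of them in the cluster. Arms whose first 18 bases recur on another arm were left out. So were arms whose hairpin ends under 5 bases past their commonest read, such as Mir136-3p. Such additions are known to be made by terminal nucleotidyl transferases, as a rule of A or U. Of the Mir127-3p reads, 36.8% (36.6 to 37.0) in WT and 35.6% (35.4 to 35.8) in KO had added bases. The commonest after the 22-nt miRNA were U with 6.98% in WT and 6.31% in KO, AU with 6.08% and 5.58%, A with 3.23% and 3.13%, and UU with 2.37% and 2.05%. Mir300-3p had the highest share in the cluster, 51.5% (49.6 to 53.4) in WT and 50.8% (49.0 to 52.7) in KO, mostly only A (27.2% and 28.7%) or only U (22.6% and 20.2%). Mir381-3p, identical to Mir300-3p over the first 20 bases apart from A4G, had additions in 2.19% (1.80 to 2.64) and 2.95% (2.49 to 3.48) of reads. Mir673-5p had 33.7% and 32.1%, Mir341-3p had 23.2% and 21.7%, of which only U made up 18.8% and 17.8% of reads, and Mir541-5p had 12.3% and 12.5%. Mir410-3p (1.35% and 1.29%) and Mir411-5p (0.437% and 0.328%) were almost free of them. The median over cluster arms was 12.3% in WT and 12.5% in KO, against 11.2% and 10.4% over the 60 other arms. Pooled over reads, the shares were 28.3% and 28.2% for cluster arms, against 6.04% and 6.29% for the others. Pooling weighs abundant arms most, Mir127-3p in the cluster and Mir10b-5p outside it (3.40% and 3.52%). Exact matching thus left out a larger share of reads of these cluster arms, and the cluster's share of hairpin reads counts exact reads only. The largest change between libraries among the 13 cluster arms was 2.10 percentage points, at Mir379-5p. Added bases that happen to match the hairpin are not seen, and sequencing errors near the 3′ end are counted as additions. Whether the added bases arose in the cells or in library preparation was not tested. Counted this way, but still scaled to exact hairpin reads, KO/WT of Mir127-3p was 1.02 (1.01 to 1.03), below the value from exact reads.

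**Figure D5:**
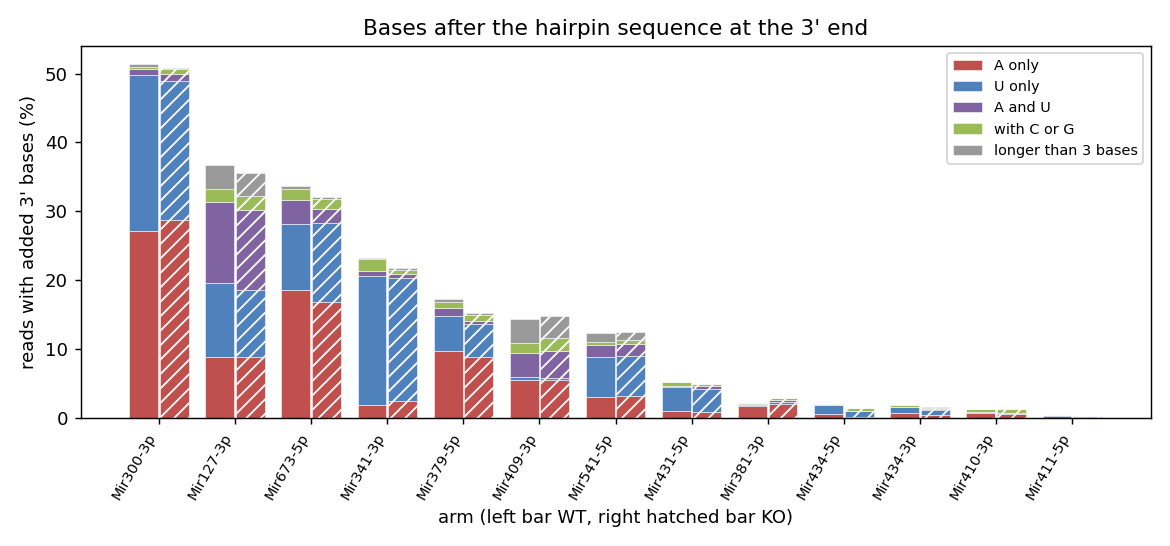
Share of reads (%) that open with the first 18 bases of an arm and carry bases not encoded by the hairpin at the 3′ end, for 13 cluster arms, with WT as the left bar and KO as the right hatched bar; colours give the added bases. Shares run from 51.5% at Mir300-3p to 0.437% at Mir411-5p in WT, and the bars of both libraries are alike in height and makeup.

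A-to-G mismatches, the trace of A-to-I editing, were rare in the arms deep enough to be read. Over 14 abundant arms of 13 cluster hairpins, 56 A positions within the first 18 bases were read, and none reached 1% in both libraries. No arm of the miR-376 family had the 500 reads needed, so that family was not examined for mismatches. The highest share over both libraries was A5G of Mir411-5p, the fourth base of its seed, counted from 1 at the 5′ end of the read, with 29 of 17544 reads in WT (0.165%, 0.111 to 0.237) and 21 of 17181 in KO (0.122%, 0.0757 to 0.187). The highest of the 50 other single-base changes of this arm was 0.142% in WT (C9A) and 0.0524% in KO (T18A), and A5G ranked 11 by share among changes of any kind in these arms in WT. The next was A7G of Mir381-3p, with 6 of 4933 reads in WT and 2 of 4754 in KO. Mir381-3p with A4G reads like Mir300-3p over the first bases, and reads that carry A4G and the end of Mir381-3p numbered 3 of 4546 in WT and 1 of 4382 in KO. Reads that match any GENCODE transcript exactly were left out, and editing at or under the share of other mismatches was not detectable at this depth.

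The other RNAs of the domain gave few reads. The 23 snoRNA genes of the interval had 356 reads in WT and 271 in KO, a KO/WT of 0.750 (0.638 to 0.881). AF357428 had 147 and 107 reads, and AF357341 had 66 and 24, with 0.358 (0.215 to 0.579). Gm25854 lay above 1, with 58 and 80 reads and 1.36, but its interval included 1 (0.957 to 1.94). Rian, known as a snoRNA host, had 447 reads in WT and 332 in KO, 0.732 (0.633 to 0.845). Of these reads 434 and 323 were 24 to 33 nt long, the class that was lower in KO outside hairpins too. The annotated Rian gene ends before some of the snoRNA genes counted here, Gm25854 among them. Mirg had 74 and 78 reads outside its hairpins and Meg3 had 21 and 8. The protein-coding Dlk1 had 33 and 33 and Dio3 had 21 and 20. These reads are fragments and do not measure the long transcripts.

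Hairpins at other imprinted loci lay on both sides of 1 in KO/WT. Mir335 in Mest had 3649 reads in WT and 3578 in KO, 0.966 (0.922 to 1.01), and Mir298 had 3001 and 2622, 0.861 (0.816 to 0.907). Mir296 beside it had 199 and 246, 1.22 (1.01 to 1.48), Mir483 in Igf2 had 114 and 119, and Mir675 in H19 had 14 and 29. The 119 hairpins inside Sfmbt2 had 380 reads in WT and 438 in KO together, 1.14 (0.987 to 1.31). The quotient of the Dlk1-Dio3 cluster to the Sfmbt2 hairpins was 0.867 (0.755 to 0.995).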

How the data were processed

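Small RNA of 2 libraries, 1 per genotype, was prepared with a small RNA kit and sequenced as 50-bp single reads on a MiSeq. The authors deposited, per library, a table of each distinct sequence (11 to 48 nt) with its raw read counts, after adapter removal and before mapping; the submitters' processing notes name build mm9. Here each sequence of at least 16 nt was matched exactly and in sense to the miRNA hairpins of GENCODE M21 (GRCm38) in Python 3.11.15 with numpy 2.4.6, pandas 2.3.3 and scipy 1.17.1. Exact matching leaves out reads with added bases, mismatches or errors. A read in several hairpins counted for each. KO/WT was computed on RPM (reads per 1000000 hairpin reads) with Clopper-Pearson intervals (95%), and fold calls (1.5) needed 100 reads in both libraries together. The matching and intervals were tested on simulated data. Named members were the 15 most abundant, the 5 highest and 5 lowest KO/WT, those opposite Rtl1, those sharing seeds and those with the highest A-to-G shares, and others were named for completeness after their values were seen. Members and lists were chosen with earlier results of these data known. The rule for 3′ additions was added after the data were seen. No genome sequence was used here, so mapping outside annotated transcripts was not done.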

Additional observations from a re-analysis of the deposited data

How the results depend on the processing

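No paired analysis was possible because each genotype had 1 library, and no replicate could be left out. KO/WT of the whole cluster was 0.984. It moved to 0.970 without Mir10b in the total and 0.993 scaled to reads of 20 to 23 nt. Without Mir127 it was 0.914, and without Mir410 it was 0.997. It turned to 1.16 scaled to all reads and 1.15 for distinct sequences, which count each sequence once whatever its depth. The cluster itself had 679 distinct sequences in WT and 659 in KO. The 1.15 is relative to all distinct hairpin sequences, which fell more outside the cluster (6799 in WT to 5674 in KO, without Mir10b). Against the other hairpins without Mir10b the quotient was 0.963. Inside Mirg KO/WT was 0.803 without Mir541, 0.914 without Mir410 and 0.917 without both, and opposite Rtl1 it turned to 0.912 without Mir127. The 2 members at least 1.5-fold lower became 0 scaled to all reads (with 1 higher), 4 at a minimum of 20 reads, 0 at 500, 4 at the lower fold tried (0.8 or its inverse, with 1 higher), 0 at a fold of 2 and 0 for distinct sequences (with 2 higher). Over all hairpin genes, shared reads included, 35.7% were lower at a minimum of 20 reads and 38.4% at 500. At the lower fold 43.7% of them were lower and 6.55% higher, and at a fold of 2 the lower share was 38.0%. These shares are no like background for the members, which share almost no reads. At the main fold 179 of the 183 lower genes drew most of their reads from sequences shared between hairpins. On own reads 82.4% of 205 hairpin genes and 87.5% of members lay between 0.8 and its inverse, so the members were close to the background. The median log2 KO/WT of members was 0.174 scaled to all reads and 0.165 for distinct sequences. Scaled to all reads Mir411 turned to 1.13, Mir381 to 1.11, Mir541 to 1.08 and Mir409 to 1.08, and the intervals of Mir434 (0.989, 0.956 to 1.02), Mir376b (0.880, 0.686 to 1.13), Mir495 (0.771, 0.512 to 1.15) and Mir668 (0.786, 0.597 to 1.03) came to include 1. For distinct sequences Mir411 turned to 1.45, Mir376b to 1.44, Mir381 to 1.18, Mir541 to 1.0 and Mir410 to 1.18, on few sequences each. The snoRNAs were at 0.888 scaled to all reads. Of the values of single members, arms, other RNAs of the domain, length shares and mismatch shares under an alternative, 250 kept their place, 42 moved and 9 turned. The cause was not tested. Keeping place meant lying inside the main counting interval, which is wide for scarce members. Of the 250, 40 came from reads of a single hairpin gene and 40 from scaling to hairpins outside the cluster. Those 2 alternatives barely change a member's value, so the tally does not measure robustness. Members with under 100 reads are limited by depth.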
